A study of Homo sapiens with 24 samples.

Results

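Glycolysis breaks glucose down to pyruvate in the cytosol, and lactate dehydrogenase turns pyruvate into lactate. Gluconeogenesis runs in the opposite direction through a few enzymes of its own, and glycogen is the store from which liver cells release glucose. The liver makes particular isozymes of several of these steps, and tumour cells often use others. The genes described here are 37 symbols of the 26475 in the deposited gene counts. They were chosen by name as enzymes of glycolysis, gluconeogenesis and glycogen turnover, together with the PFKFB enzymes and the pyruvate dehydrogenase kinases, and all 37 symbols were found.

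HepG2 is a human cell line from a liver tumour. Its RNA was sequenced in 24 libraries, 3 for each of 8 groups. The cells received the solvent DMSO, 50 nM ABBV-075, ABBV-744 at 50 or 500 nM, interferon gamma (IFNg), or IFNg combined with each of the same 3 inhibitor treatments. ABBV-075 and ABBV-744 are inhibitors of the BET proteins, which bind acetylated histones; ABBV-744 is selective for the second of their paired bromodomains. The dose of IFNg is not given in the sources used here. The study's methods list DMSO among the treatments of 24 h and ABBV-075 at 12 h, so ABBV-075 may have been compared with DMSO at unequal times. No time is given for ABBV-744 or IFNg, and whether the compounds were compared at equal times is not known. The study's methods call the DMSO and ABBV-075 samples independent triplicates of treated cells. For the other groups the sources used here do not say whether the libraries came from separate cultures, so their p-values measure the spread between these libraries, which may be technical.

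Each library held between 2978982 and 4304103 reads counted on genes, and reads that aligned to several places made up 56.0% to 69.4% of all reads. The 14 hepatocyte markers were all detected, and 8 of 12 markers of other cell types were at 3 counts or fewer in every library. The summed level of those 12 markers was 20.9 to 26.9 counts per 1000000 counted reads (CPM) with DMSO and 8.69 to 15.3 CPM with ABBV-075, and 24.3 to 28.9 CPM with IFNg against 8.60 to 13.9 CPM with IFNg and any inhibitor; COL1A2, COL3A1, LUM, DCN, PTPRC and CD3E were at 0. Their part in the results was not tested. IRF1, an interferon target, was at 10.9 to 19.1 CPM in the libraries without IFNg and at 195 to 252 CPM in those with it. HEXIM1, which is known to rise with BET inhibitors, was at 50.6 to 56.8 CPM with DMSO, 137 to 152 CPM with ABBV-075, 60.3 to 68.0 CPM with ABBV-744 at 50 nM and 84.3 to 93.9 CPM at 500 nM. MYC, a known target of BET proteins, was at 101 to 121 CPM with DMSO and at 63.9 to 70.4 CPM with ABBV-075. With IFNg and ABBV-744 at 50 nM HEXIM1 was at 38.7 to 55.5 CPM, which overlapped the 44.8 to 49.3 CPM with IFNg alone.

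The trend of gene level on the GC content of the transcript also differed between libraries. The slope is the change in log2 CPM, relative to the mean of all libraries, per 10 percentage points of GC. It was 0.22 to 0.45 with ABBV-744 at 50 nM and -0.30 to -0.27 when IFNg was present too. The 29 tested members had a median GC content of 54.3%, against 47.6% for the genes tested with a known GC content, so this trend moves with the members. For that reason the counts of members are also given after a correction for GC content, which sets the trend to the same shape in every library, and which would remove any treatment effect that follows GC content as well.

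**Figure D1:**
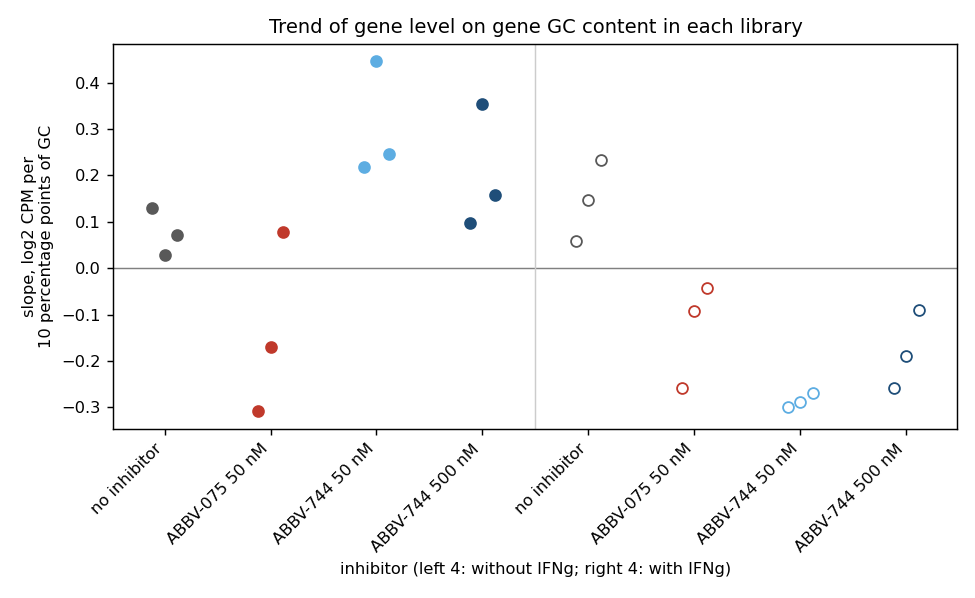
Slope of gene level on transcript GC content (vertical axis, log2 CPM per 10 percentage points of GC) in each of the 24 libraries (points), by inhibitor, without IFNg on the left and with IFNg on the right. The slopes with ABBV-744 at 50 nM lie between 0.22 and 0.45 without IFNg and between -0.30 and -0.27 with it.

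Of the 37 members, 29 had counts high enough to be tested. The other 8 were HK1, PFKM, PFKFB1, LDHB, G6PC, FBP1, GYS2 and PDK4. LDHB, a lactate dehydrogenase subunit, and GYS2, the liver glycogen synthase, had 0 counts in all 24 libraries. In the counted reads this allows a level of up to 0.697 to 1.01 CPM per library. LDHB has 3 pseudogenes named after it, and reads that match several places were left out of the counts, so its level is uncertain. HK1 did not exceed 2 counts in any library, and G6PC, the catalytic subunit of glucose-6-phosphatase, had between 0 and 11 counts. Together the members took 1.07% to 1.43% of the gene counts of a library. Over all libraries GAPDH held 31.4% of the members' counts, ENO1 20.02%, LDHA 12.6% and PKM 10.5%. Per kilobase of transcript, the DMSO level of GAPDH was 2994 ± 163 CPM per kb (SD, n = 3), that of HK2 16.5 ± 0.315 CPM per kb and that of PCK1 1.20 ± 0.349 CPM per kb.

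The isozymes were compared within each enzyme family as a share of the family's summed level in CPM per kb of transcript. With DMSO, HK2 made up 100% of the summed level of HK1 and HK2. HKDC1, a hexokinase outside the members, was at 14.6 ± 1.3 CPM with DMSO and is not in this sum. PFKL, the liver phosphofructokinase, held 87.6% ± 2.5 (SD, n = 3) and PFKP, the platelet form, 11.2% ± 2.4. PKM held 98.9% ± 0.075 of the pyruvate kinase level and PKLR, the liver and red cell form, 1.10% ± 0.075. PCK2, the mitochondrial carboxykinase, held 98.2% ± 0.57 and PCK1, the cytosolic one, 1.83% ± 0.57. With ABBV-075 the share of PFKP was 3.31% ± 2.7, that of PKLR 0.417% ± 0.19 and that of PCK1 0.676% ± 0.15. The member with the largest share of each of these families was therefore the same gene with DMSO and with ABBV-075. The shares are descriptions and were not tested.

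Differences were tested with edgeR's quasi-likelihood test over 11676 genes, and a gene was called changed when its p, adjusted by the Benjamini-Hochberg method, did not exceed 0.05. With ABBV-075 against DMSO, 12 members fell and 1 rose, while 22.3% of all genes tested fell and 25.0% rose. The median log2 fold change was -0.20 over the 29 members and 0.04 over all genes. By role, 5 of 9 tested enzymes of lower glycolysis fell, 2 of 7 of upper glycolysis, 1 of 3 bifunctional regulators, 1 of 3 of gluconeogenesis, 1 of 5 of glycogen turnover and both pyruvate dehydrogenase kinases tested. PFKP and PCK1 fell by at least 1.5 on the log2 scale, the threshold used in the study, which 3.42% of all genes met. After the GC correction 11 members fell, 10 of them among the 12, and 3 rose, while 25.1% of all genes fell and 23.6% rose. These values come from bulk RNA, in which less RNA of a gene per cell and fewer cells that make it cannot be told apart.

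With ABBV-744 and no IFNg, few members changed. At 50 nM 2 members fell and 2 rose, while 6.66% of all genes fell and 6.12% rose. At 500 nM 2 fell and 0 rose by edgeR, and 0 were called higher by DESeq2, while 5.64% of all genes fell and 5.74% rose. At an unadjusted p under 0.05, 4 members had a positive fold change. The share of all genes at an unadjusted p was not counted, here or below. HK2 and PDK1 were the members that fell at both doses. GAPDH and PCK2, called higher at 50 nM, had log2 fold changes of 0.29 and 0.46, which became 0.08 and 0.23 after the GC correction and were then not called. The call of GAPDH was also lost without any 1 of the 6 libraries (0.23 to 0.33), and that of PCK2 without ABBV-744 replicate 2 (0.38). IFNg against DMSO gave 0 member calls in either direction by edgeR and by DESeq2. Of all genes 2.08% rose and 0.188% fell at an adjusted p of at most 0.05. At an unadjusted p under 0.05, 8 members had a positive difference and 0 a negative one. PFKFB3, whose enzyme raises fructose-2,6-bisphosphate, had the largest estimate, 0.93 with a 95% interval of 0.16 to 1.71, from 6 to 11 counts per library.

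In the presence of IFNg, members fell with all 3 inhibitor treatments. With ABBV-075 against IFNg alone 21 fell and 2 rose, while 27.3% of all genes fell and 26.2% rose. With ABBV-744 at 50 nM 20 fell and 2 rose, while 22.4% of all genes fell and 24.2% rose. With ABBV-744 at 500 nM 16 fell and 2 rose, while 20.2% of all genes fell and 21.1% rose. PCK1, PKLR, HK2 and PFKP fell by at least 1.5 on the log2 scale with ABBV-075, as did 4.2% of all genes. The medians over the tested members were -0.59, -0.52 and -0.51 on the log2 scale, against -0.0011, -0.04 and -0.02 over all genes. After the GC correction the counts were 17 lower and 2 higher, 14 lower and 1 higher, and 14 lower and 1 higher, and the medians -0.36, -0.33 and -0.34. Of all genes 28%, 17.2% and 18.7% were then lower and 25.1%, 14.5% and 15.8% higher. These 3 comparisons share the libraries with IFNg alone.

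The members that fell with all 3 inhibitors under IFNg were ALDOA, ALDOC, ENO1, ENO2, GAPDH, HK2, PC, PCK2, PDK1, PFKFB4, PFKP, PGAM1, PGM1, PKLR and PKM, 15 in all, while 14.4% of all genes tested fell in all 3. Of these, 10 also fell in all 3 comparisons after the GC correction: ALDOA, ALDOC, ENO1, ENO2, HK2, PCK2, PDK1, PFKFB4, PGM1 and PKLR. With the correction 12 members in total, these 10 among them, and 12.7% of all genes fell in all 3. GBE1 and UGP2 were higher in all 3, as were 15.8% of all genes, and with the correction 0 members and 10.1% of all genes were. The 12 members that fell with ABBV-075 alone also fell with it under IFNg, as did 87.3% of all genes that fell with ABBV-075 alone.

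**Figure D2:**
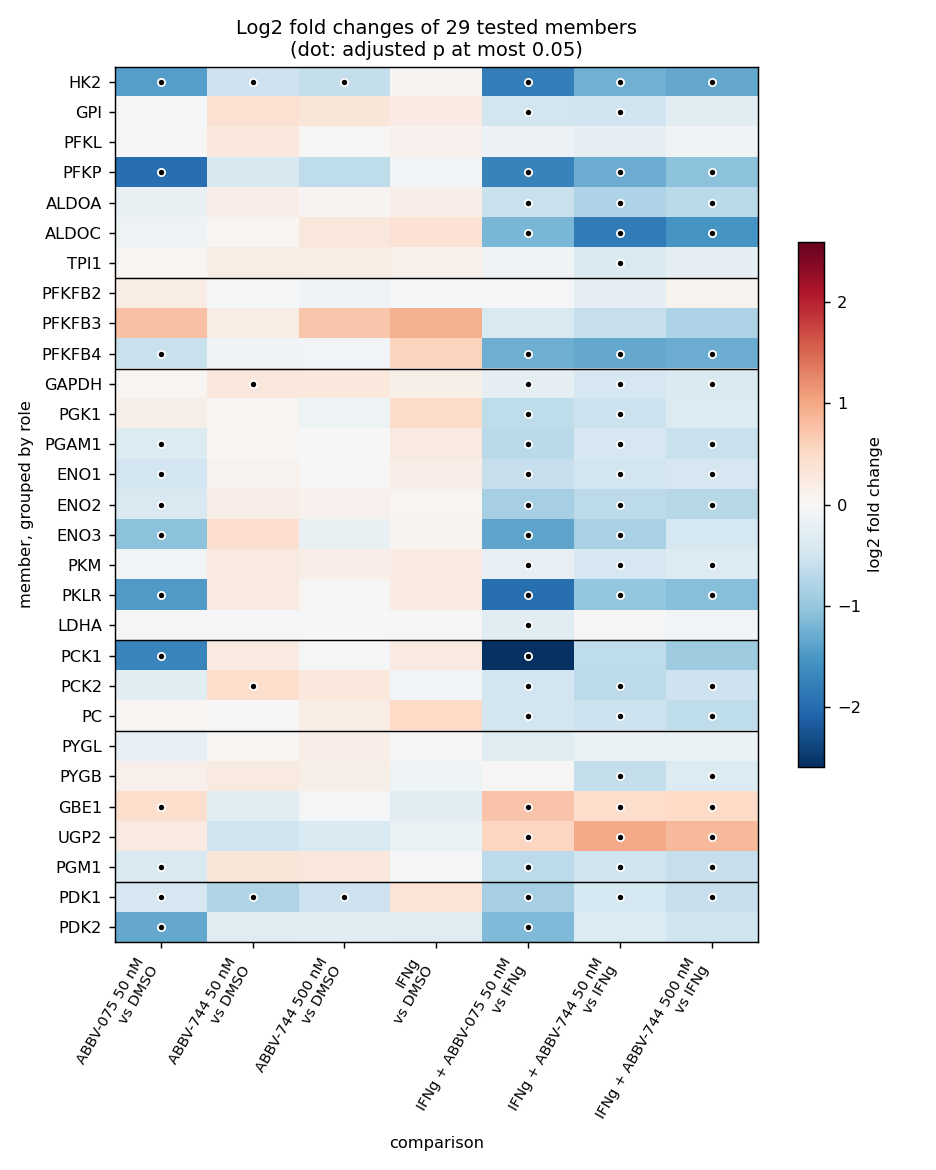
Log2 fold changes (colour) of the 29 tested members (rows, grouped by role) in 7 comparisons (columns), with a dot where the adjusted p was at most 0.05. The 3 columns under IFNg hold 21, 20 and 16 lower calls, against 12, 2 and 2 in the corresponding columns without IFNg.

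4 members were lower by at least 1.0 on the log2 scale, and called, with every inhibitor under IFNg: HK2, PFKP, PFKFB4 and ALDOC. PKLR fell just short of this, at -0.997 with ABBV-744 at 50 nM. The share of all genes that met this rule was not counted. PFKP met it at 500 nM of ABBV-744 only without the GC correction (-0.81 and not called with it). HK2, PFKFB4 and ALDOC were still called with the correction, and whether they kept a size of 1.0 is not reported here. The promoters of the 4 are shown because they met the rule. Each sequence is the 250 bases before the gene's RefSeq start in GRCh38.p14, 5′ to 3′ on the gene's strand, at chr2:74833877-74834126 (plus strand) for HK2, chr10:3067720-3067969 (plus) for PFKP, chr3:48556804-48557053 (minus) for PFKFB4 and chr17:28576896-28577145 (minus) for ALDOC. Capitals mark ACGTG on either strand (ACGTG or CACGT), a form of the core that hypoxia-inducible factors recognise. The other form, GCGTG, was not marked or counted.
HK2: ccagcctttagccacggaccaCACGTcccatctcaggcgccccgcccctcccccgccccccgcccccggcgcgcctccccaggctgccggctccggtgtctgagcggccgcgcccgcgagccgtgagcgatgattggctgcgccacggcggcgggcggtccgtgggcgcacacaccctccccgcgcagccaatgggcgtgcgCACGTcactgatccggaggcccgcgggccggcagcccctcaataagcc
PFKP: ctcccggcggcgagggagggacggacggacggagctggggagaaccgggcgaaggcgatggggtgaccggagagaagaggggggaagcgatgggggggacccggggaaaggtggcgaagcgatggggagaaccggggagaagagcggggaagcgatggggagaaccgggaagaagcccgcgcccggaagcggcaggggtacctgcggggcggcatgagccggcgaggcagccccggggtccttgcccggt
PFKFB4: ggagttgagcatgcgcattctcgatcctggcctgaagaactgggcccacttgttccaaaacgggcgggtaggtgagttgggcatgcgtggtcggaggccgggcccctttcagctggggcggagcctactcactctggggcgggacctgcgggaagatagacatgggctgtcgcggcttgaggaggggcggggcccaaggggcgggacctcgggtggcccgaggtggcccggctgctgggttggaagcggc
ALDOC: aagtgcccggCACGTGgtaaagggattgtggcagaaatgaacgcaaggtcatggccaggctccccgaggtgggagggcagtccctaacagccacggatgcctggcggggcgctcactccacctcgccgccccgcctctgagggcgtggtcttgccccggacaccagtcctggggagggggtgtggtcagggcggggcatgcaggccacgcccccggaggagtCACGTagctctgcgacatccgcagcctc
HK2 had 2 matches to ACGTG, PFKP and PFKFB4 had 0, and ALDOC had 3. A pair of those in ALDOC overlap in CACGTG, the E-box that MYC and the USF factors can bind. Of 35116 promoters of this length 18.5% held ACGTG on either strand and 6.35% held CACGTG, which contains it. Among the 34 members with a promoter entry 13 held ACGTG, and 4 held CACGTG (PKLR, LDHA, GAPDH and ALDOC). The GC content of the 4 windows ran from 68.0% in PFKFB4 to 76.8% in HK2. Each window covers 1 start of its gene. In GENCODE, PFKP begins at chr10:3066333 and PFKFB4, on the minus strand, at chr3:48562015, so their windows lie inside those bounds. Matches at other starts are not reported here.

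Among the enzymes of upper glycolysis, HK2, the hexokinase that phosphorylates glucose in many tumour cells, was lower with every inhibitor treatment. Its levels were 92.2, 91.2 and 94.7 CPM with DMSO, 27.5, 35.6 and 41.2 CPM with ABBV-075, 63.2, 64.4 and 63.2 CPM with ABBV-744 at 50 nM, and 58.4, 63.8 and 58.7 CPM at 500 nM. All treated libraries lay below all DMSO libraries, and the ABBV-075 libraries lay below those of ABBV-744. HK2 fell 2.68-fold with ABBV-075 (log2 fold change -1.42, SE 0.135, edgeR adjusted p = 1.68e-09), by 0.54 (SE 0.128, adjusted p = 0.00702) with ABBV-744 at 50 nM and by 0.62 (SE 0.128, adjusted p = 0.00173) at 500 nM.

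With IFNg the HK2 levels were 97.1, 108 and 88.1 CPM without inhibitor, 29.1, 22.3 and 34.4 CPM with ABBV-075, 45.1, 41.0 and 36.8 CPM with ABBV-744 at 50 nM, and 39.6, 42.4 and 34.4 CPM at 500 nM. Again no treated library reached the level of IFNg alone, and those of ABBV-744 were lower than in its absence. The log2 fold changes were -1.78, -1.25 and -1.33. The difference between the effects with and without IFNg was -0.71 for ABBV-744 at either dose (edgeR adjusted p = 0.00276 at 50 nM and 0.00578 at 500 nM), and -0.39 (adjusted p = 0.074) and -0.41 (adjusted p = 0.077) after the GC correction. For ABBV-075 it was -0.35 with an adjusted p of 0.67.

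PFKP, a phosphofructokinase, was a low-count gene. It had 42, 34 and 27 counts with DMSO and 3, 6 and 14 with ABBV-075, which were 11.3, 7.55 and 6.44 CPM and 0.724, 1.72 and 4.21 CPM. The groups did not overlap, and the log2 fold change was -1.96 (SE 0.407, edgeR adjusted p = 0.000266). Under IFNg its levels were 8.19, 8.27 and 7.27 CPM without inhibitor, 1.74, 2.72 and 2.71 CPM with ABBV-075, 2.17, 2.83 and 4.70 CPM with ABBV-744 at 50 nM, and 2.66, 2.37 and 6.15 CPM at 500 nM. All libraries with an inhibitor lay below those without, and the log2 fold changes were -1.73, -1.30 and -1.07. The last was not called after the GC correction (-0.81, adjusted p = 0.075), nor without either of the first pair of replicates of IFNg (-1.06 for both) or of IFNg with ABBV-744 at 500 nM (-0.90 and -0.82). PFKL, the abundant liver form, was not called with any inhibitor; its estimate with ABBV-075 was 0.02, with a 95% interval of -0.23 to 0.27.

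ALDOC, an aldolase first known from brain, differed in level between the inhibitor groups under IFNg and IFNg alone. Without IFNg its levels were 5.63, 8.66 and 10.0 CPM with DMSO, 4.34, 6.03 and 12.6 CPM with ABBV-075, 9.24, 9.74 and 6.35 CPM with ABBV-744 at 50 nM, and 8.43, 11.2 and 10.6 CPM at 500 nM. These groups overlapped, and none of the 3 differences was called. With IFNg its levels were 10.4, 11.8 and 9.79 CPM without inhibitor, 2.24, 5.71 and 6.33 CPM with ABBV-075, 3.38, 3.67 and 1.93 CPM with ABBV-744 at 50 nM, and 4.99, 3.26 and 2.77 CPM at 500 nM. Here no inhibitor library reached those of IFNg alone. The log2 fold changes were -1.19 (SE 0.336, edgeR adjusted p = 0.004), -1.81 (SE 0.363, adjusted p = 0.000189) and -1.54 (SE 0.363, adjusted p = 0.00122). The effects of ABBV-744 differed with and without IFNg by -1.86 at 50 nM (adjusted p = 0.00286) and -1.84 at 500 nM (adjusted p = 0.0052), and by -1.35 and -1.44 after the GC correction, both still called. ALDOA, the abundant aldolase, fell under IFNg by 0.59 with ABBV-075, 0.81 with ABBV-744 at 50 nM and 0.69 at 500 nM.

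PFKFB4, a bifunctional enzyme that makes and breaks down the phosphofructokinase activator fructose-2,6-bisphosphate, held 74.6% ± 1.5 of the summed PFKFB level per kb with DMSO. Its levels were 20.4, 21.3 and 21.9 CPM with DMSO, 12.6, 13.5 and 16.8 CPM with ABBV-075, 21.8, 20.7 and 16.5 CPM with ABBV-744 at 50 nM, and 17.7, 25.0 and 18.1 CPM at 500 nM. The ABBV-075 libraries lay below DMSO, and those of ABBV-744 overlapped it. The change with ABBV-075, -0.58 (SE 0.208, edgeR adjusted p = 0.0232), was not called after the GC correction (-0.42, adjusted p = 0.064), nor without DMSO replicate 2 or 3 (-0.57 and -0.55) or ABBV-075 replicate 1 or 2 (-0.48 and -0.54). With IFNg its levels were 35.2, 35.1 and 24.3 CPM without inhibitor, 11.7, 11.2 and 16.6 CPM with ABBV-075, 10.4, 10.7 and 16.9 CPM with ABBV-744 at 50 nM, and 10.7, 16.6 and 11.1 CPM at 500 nM. All 9 inhibitor libraries were below the 3 with IFNg alone, by -1.27, -1.32 and -1.29 on the log2 scale. PFKFB2 was not called in any of the 7 comparisons with DMSO or IFNg alone.

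**Figure D3:**
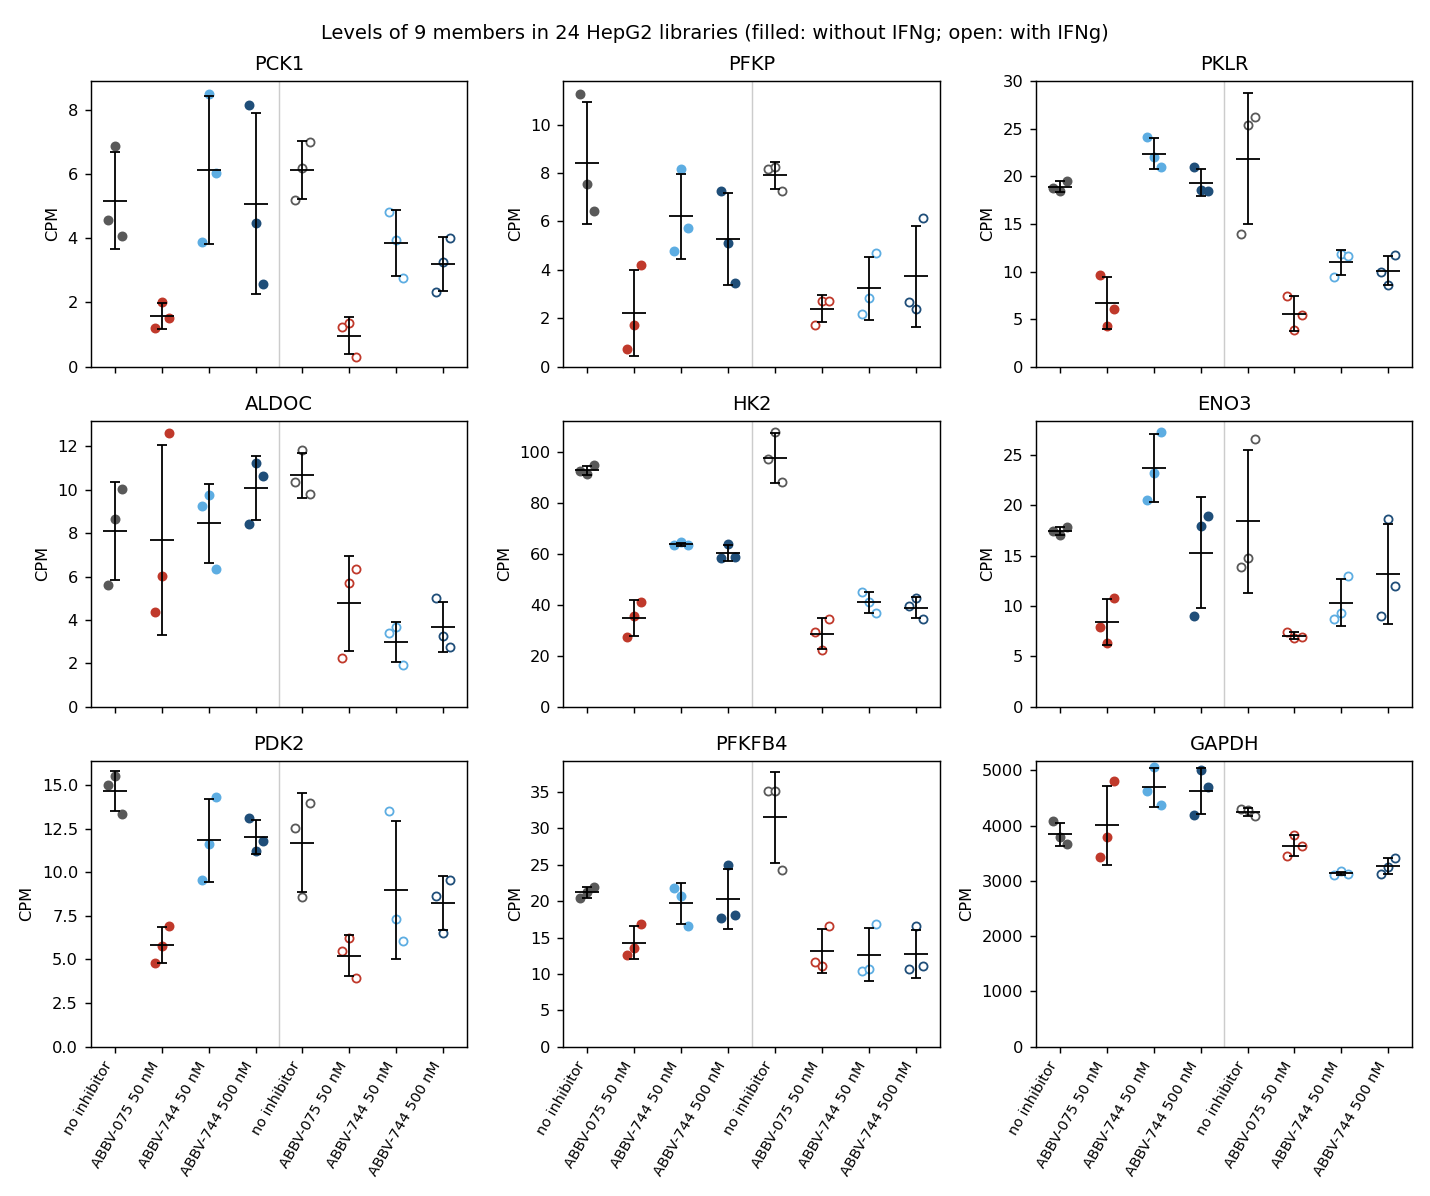
Levels (vertical axes, CPM from 0) of PCK1, PFKP, PKLR, ALDOC, HK2, ENO3, PDK2, PFKFB4 and GAPDH in the 24 libraries (points, 3 per group), with the group mean and SD (bars). Filled points are without IFNg and open points with it; HK2 with ABBV-075 lies at 27.5 to 41.2 CPM against 91.2 to 94.7 CPM with DMSO.

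In lower glycolysis, PKLR, which catalyses the last step to pyruvate in liver, was at 18.8, 18.4 and 19.6 CPM with DMSO. It was at 9.65, 4.31 and 6.01 CPM with ABBV-075, 24.1, 22.0 and 21.0 CPM with ABBV-744 at 50 nM, and 20.9, 18.6 and 18.4 CPM at 500 nM. The ABBV-075 libraries were the low ones, with a log2 fold change of -1.47 (SE 0.243, edgeR adjusted p = 1.62e-05), while neither dose of ABBV-744 was called. Under IFNg the levels were 13.9, 25.4 and 26.3 CPM without inhibitor, 7.46, 3.81 and 5.42 CPM with ABBV-075, 9.40, 11.9 and 11.6 CPM with ABBV-744 at 50 nM, and 9.99, 8.60 and 11.7 CPM at 500 nM. No inhibitor library reached the lowest with IFNg alone, and the log2 fold changes were -1.95, -0.997 and -1.11. The effect of ABBV-744 at 50 nM differed with and without IFNg by -1.24 (adjusted p = 0.00172), and by -0.69 (adjusted p = 0.095) after the GC correction.

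ENO3, the muscle enolase, was at 17.4, 17.1 and 17.9 CPM with DMSO, 7.96, 6.32 and 10.8 CPM with ABBV-075, 20.6, 23.2 and 27.3 CPM with ABBV-744 at 50 nM, and 9.01, 17.9 and 19.0 CPM at 500 nM. It fell by 1.07 on the log2 scale with ABBV-075 (SE 0.277, edgeR adjusted p = 0.00239), and the ABBV-744 groups were not called. With IFNg it was at 13.9, 14.8 and 26.6 CPM without inhibitor, 7.46, 6.80 and 6.93 CPM with ABBV-075, 8.68, 9.32 and 13 CPM with ABBV-744 at 50 nM, and 8.99, 18.7 and 12 CPM at 500 nM. The last group overlapped IFNg alone and was not called (-0.47), and the others had log2 fold changes of -1.38 and -0.84. The call at 50 nM was lost after the GC correction (-0.50, adjusted p = 0.11), without IFNg replicate 3 (-0.50) and without replicate 1 of the treated group (-0.72). ENO1, the abundant enolase, fell by 0.51 with ABBV-075 and by 0.61, 0.49 and 0.45 with the 3 inhibitor treatments under IFNg.

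GAPDH, the reference gene of the study's qRT-PCR, was at 4078, 3795 and 3671 CPM with DMSO, 3425, 3796 and 4803 CPM with ABBV-075, 4630, 5070 and 4381 CPM with ABBV-744 at 50 nM, and 4184, 5013 and 4703 CPM at 500 nM. All 6 libraries of ABBV-744 lay above the DMSO libraries, and those of ABBV-075 spanned them. With IFNg it was at 4304, 4287 and 4166 CPM without inhibitor, 3456, 3828 and 3638 CPM with ABBV-075, 3111, 3172 and 3122 CPM with ABBV-744 at 50 nM, and 3128, 3244 and 3419 CPM at 500 nM. Every inhibitor library then lay below those with IFNg alone, by -0.22, -0.44 and -0.38 on the log2 scale, all 3 called. None was called after the GC correction, and that with ABBV-075 was also lost without IFNg replicate 1 or 2 or ABBV-075 replicate 1 or 3 (-0.25 to -0.19). With the correction the estimates were 0.0033, -0.10 and -0.13. The direction with ABBV-075 under IFNg therefore flips with that correction, as does that of PKM (-0.21 and 0.05). GAPDH has 65 pseudogenes named after it in the annotation, and reads that match several places were left out of the counts, so its level is uncertain.

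LDHA, which makes lactate, was at 1617, 1615 and 1556 CPM with DMSO and at 1512, 1472 and 1614 CPM with ABBV-075. These ranges overlapped, and the difference was -0.06 with a 95% interval of -0.22 to 0.11; after the GC correction it was -0.24 and called. Under IFNg LDHA fell by 0.28 with ABBV-075 (edgeR adjusted p = 0.00556), and the ABBV-744 estimates, 0.04 and -0.08, became -0.33 and -0.35 and called after the correction. LDHA has a GC content of 41.8%, below the median of the genes tested.

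In gluconeogenesis, PCK1, the cytosolic enzyme that commits oxaloacetate to glucose synthesis, was at 4.56, 6.88 and 4.05 CPM with DMSO, 1.21, 2.01 and 1.5 CPM with ABBV-075, 3.88, 8.48 and 6.03 CPM with ABBV-744 at 50 nM, and 8.14, 4.49 and 2.59 CPM at 500 nM. Its counts were 17 to 31 with DMSO and 5 to 7 with ABBV-075. The ABBV-075 libraries were below all DMSO libraries, with a log2 fold change of -1.72 (SE 0.43, edgeR adjusted p = 0.00169), while both doses of ABBV-744 overlapped DMSO. With IFNg it was at 5.18, 6.20 and 6.99 CPM without inhibitor, 1.24, 1.36 and 0.301 CPM with ABBV-075, 4.82, 3.96 and 2.76 CPM with ABBV-744 at 50 nM, and 2.33, 3.26 and 4.0 CPM at 500 nM. The ABBV-075 libraries, at 1 to 5 counts, gave a log2 fold change of -2.58 (SE 0.468, adjusted p = 3.98e-05). The ABBV-744 groups also lay below IFNg alone, at -0.65 (adjusted p = 0.132) and -0.92 (adjusted p = 0.0523), and were not called. PCK2 fell under IFNg by 0.50, 0.68 and 0.53 with the 3 inhibitor treatments, and PC, which makes oxaloacetate from pyruvate, by 0.47, 0.56 and 0.66; after the GC correction the calls of PC with ABBV-075 and with ABBV-744 at 50 nM were lost, and that with ABBV-075 also without IFNg replicate 3 (-0.40) or ABBV-075 replicate 1 (-0.38).

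Among the glycogen genes, UGP2 and GBE1 were the members that rose. GBE1, the glycogen branching enzyme, was at 35.9, 33.8 and 35.1 CPM with DMSO and at 50.7, 54.0 and 39.7 CPM with ABBV-075. All of the latter were higher, by 0.47 on the log2 scale (SE 0.14, edgeR adjusted p = 0.00729), and by 0.26 (adjusted p = 0.06) after the GC correction; the call was also lost without ABBV-075 replicate 2 (0.38). With IFNg it was at 29.2, 26.6 and 29.4 CPM without inhibitor, 49.0, 49.5 and 43.1 CPM with ABBV-075, 43.4, 32.8 and 40.1 CPM with ABBV-744 at 50 nM, and 48.3, 38.6 and 35.1 CPM at 500 nM. The groups did not overlap, and the log2 fold changes were 0.73, 0.45 and 0.51; only that with ABBV-075 was still called after the correction, at 0.50. The call with ABBV-744 at 50 nM was also lost without IFNg replicate 2 (0.39) or replicate 1 of the treated group (0.36), and that at 500 nM without its replicate 1 (0.37).

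UGP2, which makes UDP-glucose for glycogen, was at 82.7, 87.4 and 61.3 CPM with IFNg, 126, 115 and 101 CPM with ABBV-075 added, 152, 155 and 152 CPM with ABBV-744 at 50 nM, and 156, 141 and 118 CPM at 500 nM. All inhibitor libraries were above IFNg alone, by 0.56, 0.99 and 0.84. The first was not called after the GC correction (0.07, adjusted p = 0.548) or without IFNg replicate 3 (0.40). Without IFNg its levels were 78.0, 93.7 and 89.9 CPM with DMSO, and 75.1, 44.3 and 63.8 CPM with ABBV-744 at 50 nM, an estimate of -0.51 that was not called (adjusted p = 0.0538). The effects of ABBV-744 at 50 nM with and without IFNg differed by 1.5 (edgeR adjusted p = 3.83e-05), and by 0.56 (adjusted p = 0.0029) after the GC correction. UGP2 and GBE1 had GC contents of 38.9% and 41.7%. PYGB, the brain glycogen phosphorylase, held 89.2% ± 0.98 of the summed level of PYGB and PYGL per kb with DMSO, and PYGL, the liver form, was not called with any inhibitor.

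The pyruvate dehydrogenase kinases switch off the enzyme complex that carries pyruvate into the citric acid cycle. PDK2 was at 15, 15.5 and 13.4 CPM with DMSO, 4.83, 5.74 and 6.92 CPM with ABBV-075, 9.54, 11.6 and 14.3 CPM with ABBV-744 at 50 nM, and 13.1, 11.2 and 11.8 CPM at 500 nM. The ABBV-075 libraries stood lowest, at a log2 fold change of -1.34 (SE 0.254, edgeR adjusted p = 9.29e-05), and neither ABBV-744 dose was called. With IFNg it was at 12.6, 8.56 and 14 CPM without inhibitor, 5.47, 6.25 and 3.92 CPM with ABBV-075, 13.5, 7.35 and 6.08 CPM with ABBV-744 at 50 nM, and 8.66, 6.53 and 9.53 CPM at 500 nM. Only ABBV-075 stood below IFNg alone without overlap, at -1.15 (adjusted p = 0.000747).

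PDK1 was at 38.1, 42.4 and 48.6 CPM with DMSO, 35.5, 34.5 and 25.0 CPM with ABBV-075, 28.9, 21.1 and 25.4 CPM with ABBV-744 at 50 nM, and 29.9, 25.0 and 33.4 CPM at 500 nM. All treated libraries were below those with DMSO, by -0.44, -0.78 and -0.55 on the log2 scale. The call with ABBV-075 was lost without replicate 3 of DMSO or of ABBV-075 (-0.34 and -0.33), and that at 500 nM without DMSO replicate 2 or 3 (-0.56 and -0.45) or ABBV-744 replicate 1 or 2 (-0.55 and -0.44). With IFNg it was at 67.7, 53.7 and 43.1 CPM without inhibitor, 31.8, 29.1 and 28.9 CPM with ABBV-075, 37.6, 43.0 and 38.7 CPM with ABBV-744 at 50 nM, and 38.6, 35.0 and 35.4 CPM at 500 nM. The inhibitor libraries were again the lower ones, by -0.87, -0.47 and -0.60. The call at 50 nM of ABBV-744 was lost without replicate 1 of IFNg alone (-0.30) or of the treated group (-0.43). After the GC correction the estimates were -1.32, -1.08 and -1.09. PDK1 has a GC content of 39.5%.

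The compounds could be compared at the same dose of 50 nM. Without IFNg, 15 members were lower and 2 higher with ABBV-075 than with ABBV-744, while 24.8% of all genes were lower and 26.8% higher. The largest differences were PCK1 (-1.95), PKLR (-1.71), PFKP (-1.54) and ENO3 (-1.50), and HK2 differed by -0.88. PFKP was not called without ABBV-075 replicate 1 (-1.07). After the GC correction 10 were lower and 4 higher, while 21.4% of all genes were lower and 20.4% higher. The direction of GAPDH, -0.23 and called, turned to 0.12. With IFNg 6 members were lower and 2 higher with ABBV-075, while 15.3% of all genes were lower and 10.8% higher. PCK1 (-1.92), PKLR (-0.95), PDK2 (-0.79) and HK2 (-0.52) were among those lower, and PYGB (0.66) and TPI1 (0.27), an isomerase of upper glycolysis, were higher. The call of TPI1 was lost without ABBV-075 replicate 2 or 3 or any 1 library of ABBV-744 under IFNg (0.22 to 0.30). The calls of PKLR, PDK2 and HK2 also rest on few libraries: PKLR was not called without replicate 2 of ABBV-075 under IFNg (-0.75), PDK2 without replicate 1 or 3 of it (-0.83 and -0.64) or replicate 1 of ABBV-744 (-0.35), and HK2 without the former's replicate 2 (-0.38) or the latter's replicate 1 (-0.45).

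The doses of ABBV-744 differed in 0 members, without IFNg and with it, by edgeR and by DESeq2, while 0.0771% of all genes were called without IFNg and 0.0171% with it. At an unadjusted p under 0.05, 1 member was lower at 500 nM without IFNg and 1 higher with it. For HK2 the difference between 500 nM and 50 nM was -0.08 without IFNg, with a 95% interval of -0.35 to 0.19, and -0.08 with IFNg, with an interval of -0.37 to 0.21. For PFKP it was -0.23, with an interval of -1.0 to 0.54, so a fall of that size on the log2 scale was within reach of the error.

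Whether IFNg changed the effect of an inhibitor was tested as an interaction. For ABBV-075, 0 members were called by edgeR and by DESeq2, while 0.0428% of all genes were called by edgeR. At an unadjusted p under 0.05, 10 members had a negative interaction, and the share of all genes at that threshold was not counted. For ABBV-744 at 50 nM 18 members had a more negative effect with IFNg and 2 a more positive one, while 22.4% of all genes were called lower and 24% higher. At 500 nM 17 were more negative and 1 more positive, while 12.5% of all genes were called lower and 15.9% higher. The GC slopes of these libraries differed in the same pattern. After the GC correction 9 members were called lower and 1 higher at 50 nM, and 7 lower and 1 higher at 500 nM. Of all genes 9.64% were then lower and 8.88% higher at 50 nM, and 7.12% lower and 6.1% higher at 500 nM. ALDOC, ALDOA, PCK2, PGM1 and UGP2 were called at both doses with and without the correction.

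**Figure D4:**
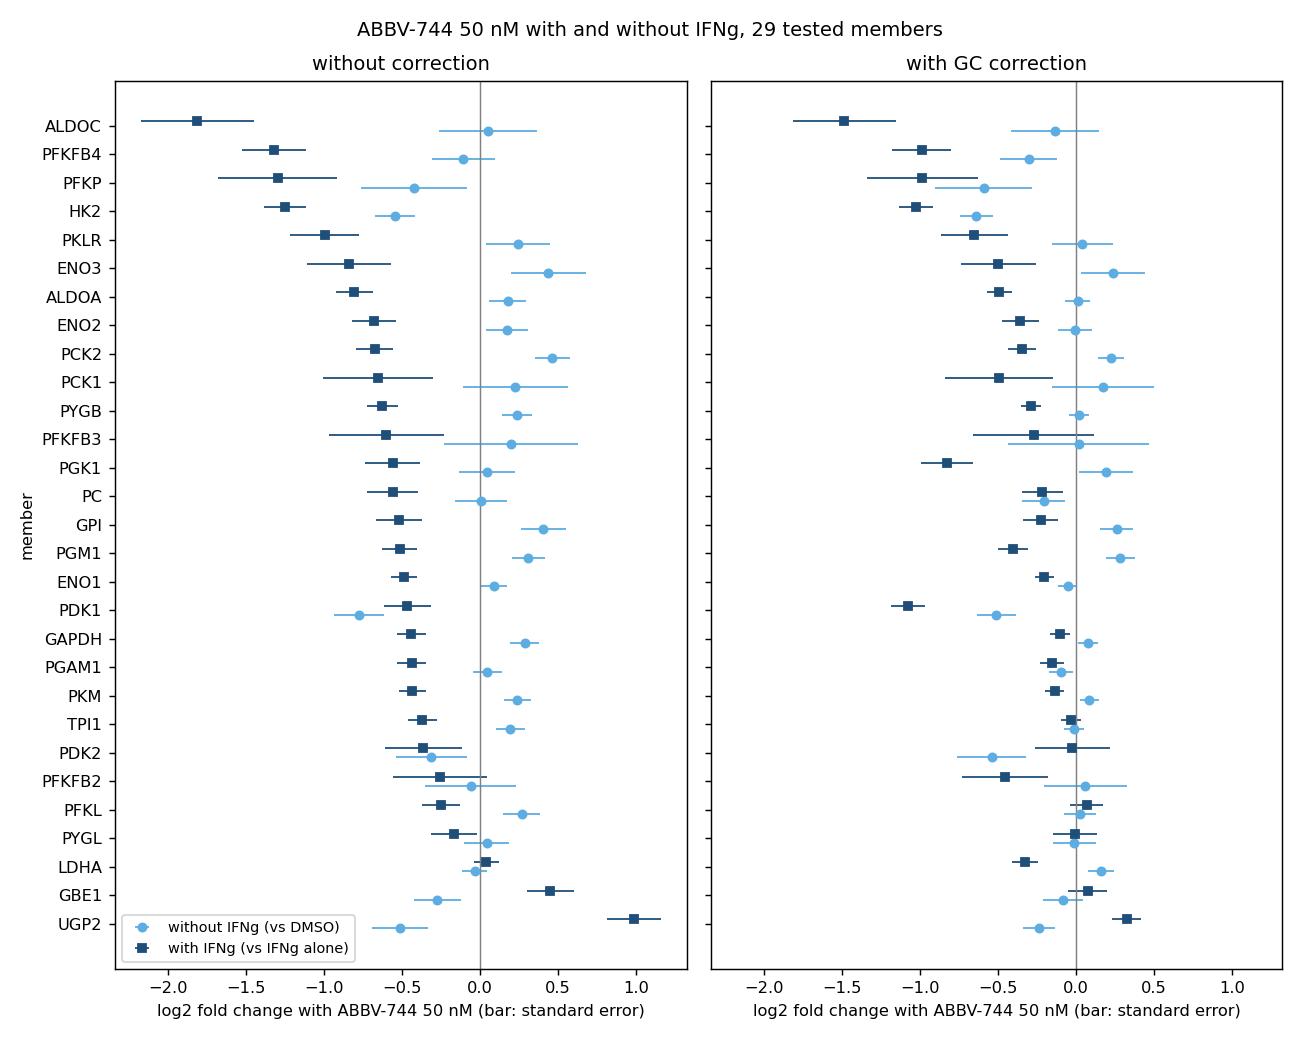
Log2 fold changes (horizontal axis, bars are standard errors) of the 29 tested members with ABBV-744 at 50 nM, without IFNg against DMSO (circles) and with IFNg against IFNg alone (squares), without a GC correction (left) and with it (right). With IFNg 20 members were lower without the correction and 14 with it.

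Other genes of glucose metabolism were counted from lists of their own, against the 22.3% of all genes that fell and the 25.0% that rose with ABBV-075. Of 25 further tested genes of glycolysis, gluconeogenesis and glycogen, 6 fell and 2 rose with ABBV-075 against DMSO. HKDC1, a further hexokinase, fell by 2.36 on the log2 scale, from 14.6 ± 1.3 to 2.76 ± 0.97 CPM (SD, n = 3; edgeR adjusted p = 4.59e-08), and PGM2L1 rose by 1.12 (adjusted p = 0.00672). Of 12 tested genes listed for transport of glucose and lactate, 6 fell and 2 rose. SLC2A2, the glucose transporter of hepatocytes, fell by 2.64 with ABBV-075, from 58.4 ± 1.3 to 9.28 ± 1.9 CPM, and by 1.53 and 1.52 with ABBV-744 at 50 and 500 nM. It fell by 0.71 with IFNg alone (edgeR adjusted p = 0.00464), and under IFNg the ABBV-744 estimates were -0.11 and -0.23 and not called. SLC2A13, on the list by its gene family but known as a carrier of myo-inositol, rose by 1.62 with ABBV-075.

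Of the 8 genes of the pentose phosphate pathway, which branches from glucose-6-phosphate, 3 rose and 1 fell with ABBV-075. RPIA fell by 0.68 with ABBV-075. Of 10 genes for pyruvate entry and the pyruvate dehydrogenase complex 2 rose and 3 fell, with DLD 1.11 higher and PDP2 0.42 lower. Of 22 tested transcription factors of glucose metabolism 6 rose and 5 fell with ABBV-075, among them CREB1, which rose by 1.15. With IFNg alone, where 2.08% of all genes rose and 0.188% fell, 1 of these 22 rose and 1 of the 12 listed transport genes fell.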

How the data were processed

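Per the submitters' processing notes, the reads were trimmed by Trimmomatic 0.33 and mapped to hg38 by STAR 2.7.1. The authors deposited raw read counts by gene symbol, one file per library, with no normalization. The annotation used for counting is not given in the sources used here. Column 4 of the files, the reads on the gene's strand, was used. Of all reads, 12.0% to 16.8% were counted on genes, and reads that aligned to several places were not counted, so members with pseudogenes are uncertain. Groups and replicate numbers came from the labels.

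All 24 libraries were fitted together in R 4.3.3 with edgeR 4.0.16: filterByExpr, TMM normalization, its quasi-likelihood functions glmQLFit and glmQLFTest, and Benjamini-Hochberg adjustment over 11676 genes. A standard error is the log2 fold change divided by the square root of F. CPM were divided by the TMM library size. Each inhibitor was compared with its control, with the other compound at 50 nM and between doses, and 3 interactions with IFNg were tested, 14 tests in all. Alternatives were DESeq2 1.42.0, RLE normalization, other filters, a fit of the groups compared, both strands together, a lowess GC correction (span 0.3), a replicate block, and leaving out each library. The GC content came from GENCODE transcripts.

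The members and lists were chosen with earlier results of these data known. Members described library by library had an adjusted p of at most 0.05 and moved by 1.0 or more on the log2 scale against DMSO or IFNg alone; GAPDH was included as the reference gene of the study's qRT-PCR, and PDK1, GBE1, UGP2 and LDHA were added after their values were seen. From each further list the gene that rose most and the gene that fell most with ABBV-075 are named, except for some that are not reported here. Of the 14 hepatocyte markers 3 rose and 6 fell with ABBV-075 against DMSO, with a median log2 fold change of -0.17. Among those that rose was APOB, by 0.87. Of all genes 25.0% rose and 22.3% fell. Of the 12 markers of other cell types 2 were tested and 2 fell, among them CD14 by 3.04 (SE 0.74). CD14 was at 2.52 ± 1.62 CPM with DMSO and 0.276 ± 0.031 CPM with ABBV-075 (SD, n = 3). The latter is below the 0.697 to 1.01 CPM that 3 counts make, so the size of this fall is uncertain. Promoters came from the RefSeq table for GRCh38.p14, which held 34 of the members.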

Additional observations from a re-analysis of the deposited data

Results flagged for a closer look

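The effects of ABBV-744 with and without IFNg differed, by a test of the interaction (edgeR's quasi-likelihood test, adjusted p at most 0.05), in 20 members at 50 nM and 18 at 500 nM. The values are the log2 fold change with IFNg minus that without it.

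At 50 nM the difference was -1.86 for ALDOC, -1.28 for ENO3, -1.24 for PKLR, -1.21 for PFKFB4, -1.14 for PCK2, -0.98 for ALDOA, -0.93 for GPI, -0.87 for PYGB, -0.85 for ENO2, -0.82 for PGM1, -0.73 for GAPDH, -0.71 for HK2, -0.67 for PKM, -0.58 for ENO1, -0.57 for PC, -0.56 for TPI1, -0.52 for PFKL and -0.48 for PGAM1. It was 1.5 for UGP2 and 0.73 for GBE1.

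At 500 nM the difference was -1.84 for ALDOC, -1.53 for PFKFB3, -1.22 for PFKFB4, -1.14 for PKLR, -0.90 for PGM1, -0.85 for PC, -0.82 for ENO2, -0.80 for PCK2, -0.76 for ALDOA, -0.71 for HK2, -0.65 for GAPDH, -0.63 for GPI, -0.57 for PGAM1, -0.51 for PKM, -0.51 for PYGB, -0.45 for ENO1 and -0.41 for TPI1. It was 1.25 for UGP2. The value of PFKFB3 rests on 3 to 11 counts per library in these 4 groups and was not called with no filter on low counts (-1.52), after the GC correction (-1.14) or without any 1 of 8 of the 12 libraries (-1.59 to -1.28). That of PC at 50 nM was not called under DESeq2 (-0.52), after the GC correction (-0.0073) or without any 1 of 8 of the 12 libraries (-0.61 to -0.49).

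The GC slope of the libraries with ABBV-744 at 50 nM was 0.22 to 0.45 without IFNg and -0.30 to -0.27 with it, and reads that aligned to several places made up 66.2% to 69.4% and 57.5% to 59.6% of all reads. With the GC correction 10 members were called at 50 nM and 8 at 500 nM, while 18.5% and 13.2% of all genes were.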

How the results depend on the processing

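Over 25 counts of members and 9 alternatives besides leaving out a library, 197 of the values were within 1.5 times the reported count and 28 were not. The others were as follows. With the GC correction, alone or with the replicate block, higher members became 3 for ABBV-075, 1 for ABBV-744 at 50 nM, 1 at 500 nM and 1 for IFNg, each against DMSO, 1 for ABBV-744 at 50 nM and 1 at 500 nM against IFNg, and 4 for ABBV-075 against ABBV-744 at 50 nM. The interaction with IFNg gave 10 calls at 50 nM and 8 at 500 nM. With the GC correction and no block, 4 were higher for ABBV-075 against ABBV-744 under IFNg. With only the groups compared in the fit, higher members were 4 for ABBV-744 at 50 nM, 3 at 500 nM and 3 for IFNg against DMSO, and under IFNg 6 for ABBV-075 against ABBV-744 at 50 nM and 1 for ABBV-744 at 500 nM against 50 nM. For ABBV-744 at 50 nM against DMSO, DESeq2 gave 1, RLE normalization 1 and the replicate block 5 higher members, and with no filter on low counts 1 was higher at 500 nM.

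Signs reversed with the GC correction, alone or with the block, for GAPDH (0.0033 and 0.0034) and PKM (0.0485 and 0.048) with ABBV-075 against IFNg, GAPDH (0.1229 and 0.1239) between the compounds at 50 nM, and PFKL (0.0446 and 0.0431) in the interaction at 50 nM. The cause was not tested. Of 145 called values, 56 lost their call under the GC correction, the 4 reversed ones among them, 5 under DESeq2 and 0 under the block. PDK2 between the compounds under IFNg lost it under DESeq2 (-0.78). The replicate numbers showed no clear pairing of the libraries, which does not exclude one. Of 28 pairs of groups, 0 had every correlation of same-numbered libraries over 0.1. The median of these 84 correlations was 0.0064 and the highest 0.34, and 13 of 24 libraries correlated best with their own number.

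Leaving out 1 library at a time gave these ranges of counts. Lower members were 10 to 14 with ABBV-075, 2 to 3 with ABBV-744 at 50 nM, 1 to 2 at 500 nM (1 without DMSO replicate 2 or 3 or ABBV-744 replicate 1 or 2), 18 to 22, 18 to 20 and 16 to 19 with the 3 inhibitors under IFNg, 12 to 18 between the compounds, and 3 to 5 between them under IFNg (3 without ABBV-075 replicate 2 or ABBV-744 replicate 1). Higher members were 0 to 2 with ABBV-075 (0 without its replicate 2, 2 without 3), 0 to 3 with ABBV-744 at 50 nM (1 without any 1 DMSO library or its replicate 3, 0 without its replicate 2), 0 to 2 at 500 nM (2 without its replicate 1) and 0 to 1 with IFNg (1 without its replicate 1). Under IFNg they were 1 to 2 with ABBV-075 (1 without IFNg replicate 3), 1 to 2 with ABBV-744 at 50 nM (1 without IFNg replicate 2 or its own replicate 1), 1 to 2 at 500 nM (1 without its replicate 1) and 1 to 3 between the compounds (1 without ABBV-075 replicate 2 or 3 or any 1 ABBV-744 library). The interactions gave 0 to 2 for ABBV-075 (2 without ABBV-075 replicate 1), 19 to 21 and 15 to 18 for the doses of ABBV-744.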
